A study of Chlamydomonas reinhardtii with 6 samples.

Results

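The genes described here are the nuclear genes for core subunits of photosystem I in the green alga Chlamydomonas reinhardtii, chosen by their gene identifiers. Earlier results of these data were known when they were chosen, although the rule used no expression values. The identifiers of 8 subunit genes made up the choice, and 6 of them were matched among the 13452 genes of the expression table: PSAE (Cre10.g420350), PSAF (Cre09.g412100), PSAG (Cre12.g560950), PSAH (Cre07.g330250), PSAL (Cre12.g486300) and PSAN (Cre02.g082500). PSAK (Cre17.g724300) and PSAO (Cre07.g334550) were not analysed here. The subunit names are those assigned to these identifiers when the genes were chosen. The deposited gene descriptions cover only genes that the authors list as changed more than 2-fold, and they include 0 of the 6, so the names could not be checked against them.

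The strain was CC-125 (137c mt+), grown in acetate medium (TAP) and labelled as stationary, and RNA was sequenced from 6 cultures described as independent. All 6 stood for 1 h in weak visible light of 3.6 µmol m-2 s-1 in a field with narrowband UV-B lamps set to 0.07 mW/cm2. In 3 cultures (UV-B) a filter whose transmission was half-maximal at 311 nm admitted the UV-B, and in 3 others (no UV-B) one half-maximal at 360 nm held it back, so the groups also differ in any light between those wavelengths. The series concerns acclimation to UV-B, and the comparison asks how transcript levels differ after 1 h of it. Reads in the table numbered between 7868534 and 11972794 per library.

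Photosystem I is the thylakoid membrane complex that uses light to move electrons from plastocyanin or cytochrome c6, on the lumen side, to ferredoxin, on the stroma side. The chlorophyll-binding centre is made of PSAA and PSAB, which are encoded in the chloroplast genome, and the smaller subunits studied here are made in the cytosol from nuclear genes and imported. Among these, PSAF and PSAN face the lumen and the electron donor, PSAE faces the stroma and ferredoxin, PSAG lies at the edge that holds the light-harvesting antenna, and PSAL and PSAH lie at the opposite edge, where in plants the mobile antenna of photosystem II docks during state transitions.

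After 1 h of UV-B the 6 transcripts had moved little, and not all in the same direction. PSAH rose, with a mean 17.2% above that of the no UV-B cultures. PSAF, PSAG and PSAL fell, with changes in the mean of -14.4%, -14.7% and -11.5%, although these 3 falls did not pass the threshold when libraries were scaled to equal totals. PSAE and PSAN had changes in the mean of -8.79% and -10.1% but did not pass the test. Thus 1 gene rose, 3 fell and 2 did not pass, at an adjusted p of 0.05 from limma over all 13415 genes tested. The counts depend on the fit: leaving out 1 library gave 0 to 1 raised and 1 to 5 lowered members, and without a trend of the variance on abundance 0 were raised and 0 lowered, PSAH included (limma adjusted p = 0.0853). These 4 calls of 6 (66.7%) stand beside 59.0% of all genes tested (29.5% of all raised and 29.6% of all lowered), so the share of called members was near the background. The even split over all genes depends on the scaling, since equal library totals gave 4533 raised and 3187 lowered genes. In 4 of the 6 genes the groups did not overlap, against 63.2% of all genes tested. The largest absolute log2 fold change among the 6 was 0.23, and the median over all genes tested was 0.40, or 0.27 over the 255 genes at least as abundant as the least abundant member. In RNA from a whole culture, fewer cells that hold a transcript and less of it per cell cannot be told apart.

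Values are normalised read counts, which the authors scaled to an effective library size, a scale much like CPM. All 6 genes are abundantly read, at or above the 98.1 percentile of the genes tested, with 4929 to 18580 reads per gene and library. Counting alone therefore gives a relative error of 0.734% to 1.42%, below the spread between cultures in every gene and group except PSAL under UV-B.

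**Figure D1:**
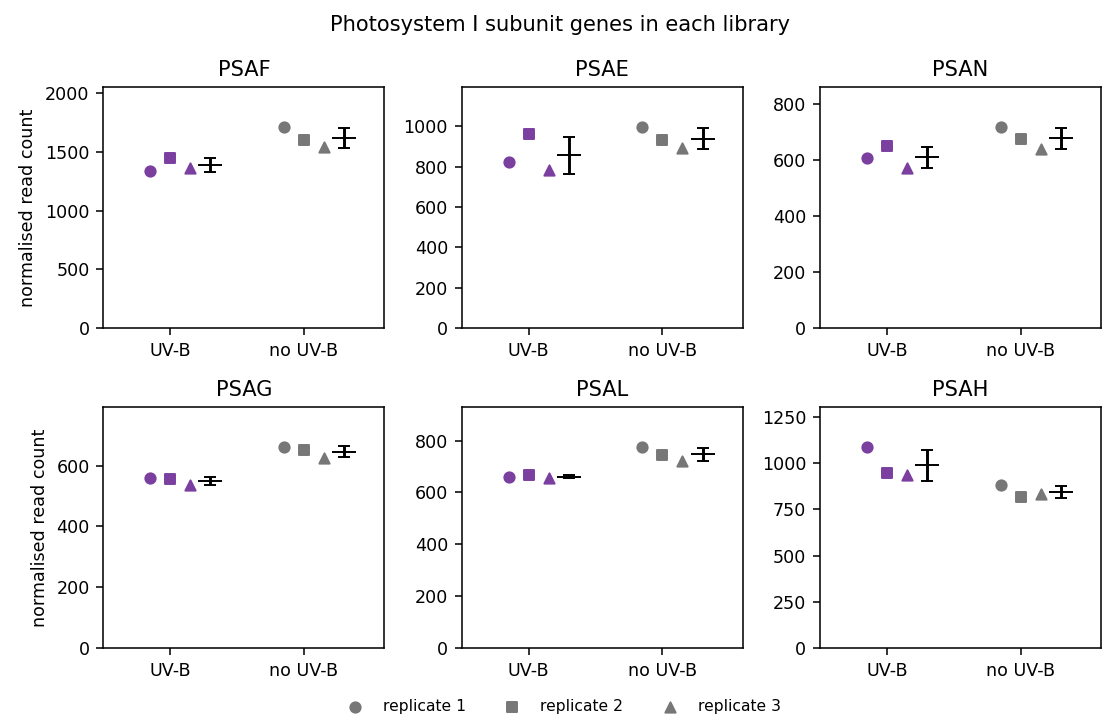
Normalised read count (linear vertical axes starting at 0) of 6 photosystem I subunit genes in the 3 UV-B libraries (purple, left) and the 3 no UV-B libraries (grey, right). Marker shapes stand for replicate numbers, and black bars give the mean ± SD of each group; PSAH is higher in every UV-B library, PSAF, PSAG and PSAL are lower in every UV-B library, and PSAE and PSAN overlap between the groups.

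On the lumen side, PSAF encodes the subunit that docks the electron donors plastocyanin and cytochrome c6. It had normalised read counts of 1341, 1452 and 1364 in the UV-B libraries, against 1708, 1605 and 1545 in the no UV-B libraries. Every UV-B library lay below every no UV-B library. PSAF averaged 1386 ± 58.5 with UV-B and 1620 ± 82.6 without (SD, n = 3 each), a log2 fold change of -0.22 ± 0.07 (SE; 95% interval -0.38 to -0.07; limma adjusted p = 0.0112). Without UV-B replicate 1 the adjusted p was 0.0533 and without no UV-B replicate 1 it was 0.0584, both by limma, and with equal library totals the log2 fold change was -0.12 (adjusted p = 0.145). PSAN, the other lumenal subunit, is known in Arabidopsis to assist electron transfer from plastocyanin. Its values were 608, 650 and 573 with UV-B, against 718, 677 and 642 without. The groups overlapped by a single library, UV-B replicate 2, and the log2 fold change of -0.15 ± 0.07 (95% interval -0.30 to -0.01) did not pass after adjustment (limma adjusted p = 0.0661).

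On the stroma side, PSAE encodes a subunit that helps to dock ferredoxin, the electron acceptor. It had 824, 962 and 786 with UV-B, against 995, 932 and 892 without. UV-B replicate 2 again stood above its group and within the range of the no UV-B cultures. The mean was 857 ± 92.4 with UV-B and 940 ± 51.7 without (SD, n = 3 each). PSAE had the smallest difference of the 6, a log2 fold change of -0.14 ± 0.08 (95% interval -0.30 to 0.02), and did not pass (limma adjusted p = 0.131). Without UV-B replicate 2 its log2 fold change was -0.22 (limma adjusted p = 0.0174), and with all 6 libraries it was also called after quantile normalization (-0.16, limma adjusted p = 0.0347).

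At the antenna edge, PSAG encodes a membrane subunit that helps to bind the light-harvesting belt of photosystem I. Its values were 558, 557 and 536 with UV-B, against 659, 650 and 625 without. The groups were well separated, with a gap wider than the range within either group. PSAG averaged 550 ± 12.7 with UV-B and 645 ± 17.8 without (SD, n = 3 each), which gave the smallest adjusted p of the 6 genes (log2 fold change -0.23 ± 0.07, 95% interval -0.37 to -0.09; limma adjusted p = 0.00447). This call was kept whichever library was left out, with adjusted p between 0.00564 and 0.0295. It was lost with equal library totals, where the log2 fold change was -0.12 (limma adjusted p = 0.129).

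At the opposite edge lie PSAL and PSAH, neighbours in the complex whose transcripts went in opposite directions. PSAL had 658, 667 and 657 with UV-B, against 774, 746 and 720 without. The UV-B libraries lay close together and below all no UV-B libraries. PSAL averaged 661 ± 5.52 with UV-B and 747 ± 26.7 without (SD, n = 3 each), a log2 fold change of -0.18 ± 0.07 (95% interval -0.31 to -0.04; limma adjusted p = 0.0280). That call was lost without UV-B replicate 1 (adjusted p = 0.0675), no UV-B replicate 1 (0.0969) or no UV-B replicate 2 (0.0906, all limma), and with equal library totals, where the log2 fold change was -0.07 (0.405).

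PSAH had 1084, 945 and 936 with UV-B, against 880, 815 and 835 without. All UV-B libraries were above all no UV-B libraries, and UV-B replicate 1 was the highest. PSAH averaged 989 ± 83.0 with UV-B and 844 ± 33.3 without (SD, n = 3 each), a log2 fold change of 0.23 ± 0.07 (95% interval 0.07 to 0.38; limma adjusted p = 0.00990). Without UV-B replicate 1 the log2 fold change was 0.16 (limma adjusted p = 0.101), and without no UV-B replicate 2 it was 0.20 (adjusted p = 0.0693). With equal library totals it was 0.33 (limma adjusted p = 0.000188), so PSAH was the single member of 6 called with that scaling, under which 57.5% of all genes tested were called.

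The order of the libraries within a group was largely shared by the members without UV-B, and only in part with UV-B. No UV-B replicate 1 was the highest of its group in 6 of 6 genes, and no UV-B replicate 3 the lowest in 5 of 6. UV-B replicate 3 was the lowest of its group in 5 of 6, in PSAL by less than the counting error (657.4 against 657.9 in replicate 1). The highest of that group was replicate 2 in 4 genes and replicate 1 in 2. The share of all genes with these orders was not counted. The column totals of the deposited values also fell in order without UV-B, at 1080040, 1038280 and 995760 in no UV-B replicates 1, 2 and 3. UV-B replicate 3 had the lowest total of all (928804). These totals follow from the authors' adjustment of library size and not from sequencing depth. UV-B replicate 3 had 11214409 reads, against 9846545 in no UV-B replicate 1. When every library was scaled to the same total, PSAG had 569, 567 and 577 with UV-B, against 611, 626 and 628 without. PSAF then averaged 1438 ± 61.4 with UV-B and 1560 ± 19.4 without (SD, n = 3 each), and PSAE averaged 888 ± 78.2 with UV-B and 905 ± 14.0 without. The groups still did not overlap in 4 of the 6 genes, against 61.8% of all genes tested. This scaling moved the median log2 fold change of all genes tested by 0.09.

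With the deposited scaling, abundant transcripts in general were lowered more often than raised. The median log2 fold change of the 6 members was -0.16, against 0.00 over all genes tested. Among the 255 genes tested whose mean was at least that of the least abundant member (598), the 6 members included, the median was -0.19. Of these 255 genes 47.8% were lowered and 20.0% raised (67.8% called in all). This split was not counted with equal library totals. The members had 3 lowered genes and 1 raised gene of 6.

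**Figure D2:**
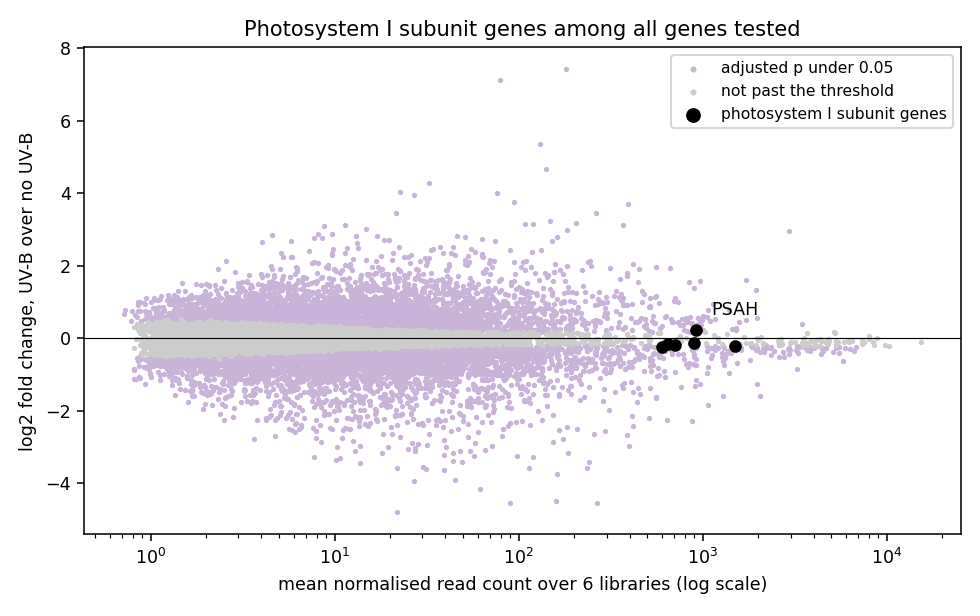
Log2 fold change (UV-B over no UV-B, vertical axis) against mean normalised read count over the 6 libraries (horizontal log axis) for 13415 genes tested, with genes past an adjusted p of 0.05 in purple, the others in grey and the photosystem I subunit genes in black. The 6 members lie among the abundant genes and between -0.23 and 0.23, and PSAH is the member above the line of no change.

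A factor that scales a whole library leaves the ratio of genes within it as it was (quantile normalization does not), and in these ratios PSAH differed from the other 5 genes. PSAH divided by PSAG was 1.94, 1.70 and 1.75 in the UV-B libraries, against 1.34, 1.25 and 1.34 in the no UV-B libraries. PSAH divided by PSAL, its partner in the complex, was 1.65, 1.42 and 1.42 with UV-B, against 1.14, 1.09 and 1.16 without. PSAH divided by PSAE was 1.32, 0.983 and 1.19 with UV-B, against 0.885, 0.875 and 0.936 without. In each of the 5 ratios with PSAH every UV-B library lay above every no UV-B library, and the fold between the group means was between 1.29 and 1.37. As a background, when each gene tested was set against the median of all 6 members, the groups did not overlap in 60.7% of genes. The 5 ratios share PSAH and so are not separate observations. On the log2 scale, the change of a pair is the difference between the log2 fold changes of its genes given above. The 5 pairs with PSAH changed by 0.36 to 0.45 in absolute size, and the 10 pairs among the other 5 genes by 0.0041 to 0.09. Among these 10, the log2 ratio of PSAG to PSAL also did not overlap between groups, at -0.26 ± 0.03 with UV-B and -0.21 ± 0.02 without (SD, n = 3 each).

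**Figure D3:**
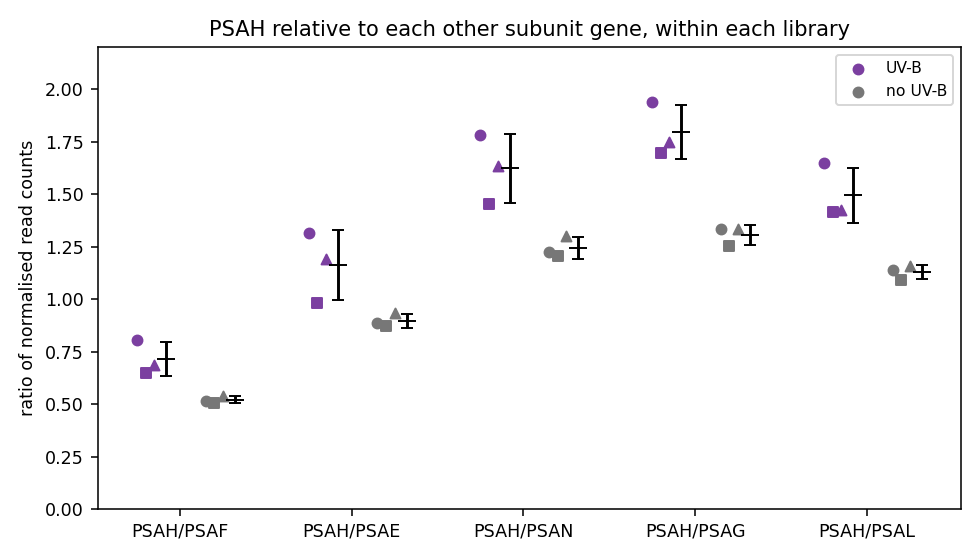
Ratio of the normalised read count of PSAH to that of each other subunit gene within the same library (linear vertical axis), for UV-B (purple) and no UV-B (grey) libraries, with marker shapes for replicates 1 (circle), 2 (square) and 3 (triangle) and black bars for the mean ± SD. All 5 ratios are higher in the UV-B libraries, with no overlap, and the smallest gap is that of PSAH to PSAE.

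Each gene was also set against the median of the other 5 members in each library. For PSAH that median is PSAL, so this is the PSAH to PSAL ratio again, on the log2 scale 0.58 ± 0.12 with UV-B and 0.18 ± 0.04 without (SD, n = 3 each), a difference of 0.40. The exact two-sided permutation test gave p = 0.1 (adjusted p = 0.15 over the 6 genes), the smallest p that 3 against 3 libraries allow, so this design cannot pass 0.05. PSAG, PSAL and PSAN also had p = 0.1 in the same exact test, with differences of -0.24, -0.18 and -0.16. Their reference is PSAH itself in all no UV-B libraries and in UV-B replicate 2, and PSAE in UV-B replicates 1 and 3. These 3 differences therefore mix 2 reference genes and in part restate the change in PSAH. In pairs without PSAH the log2 ratios changed by at most 0.09. The difference was -0.05 for PSAF (exact p = 0.3) and 0.04 for PSAE (exact p = 0.8). With quantile normalization the difference was 0.32 for PSAH.

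Each member kept its direction under other processing. PSAH had a positive log2 fold change and the other 5 a negative one in every setting tried. Many of these settings could not change a sign. Other filters, TMM, other variance models in limma, the replicate number as a term and the 0.01 threshold leave the fold change as it was. Other pseudocounts hardly move it in genes this abundant. At an adjusted p of 0.05, PSAG was called in 18 of 20 other settings, PSAH in 17, PSAF in 15, PSAL in 14, PSAN in 3 and PSAE in 2. TMM scaling is among these settings and gives back the scaling of the deposited values, so its calls could not differ. When the variance was modelled without a trend on abundance, 0 of the 6 were called, with adjusted p between 0.0543 for PSAG and 0.315 for PSAE by limma (0.0706 for PSAF, 0.124 for PSAL), and 56.9% of all genes tested were still called.

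**Figure D4:**
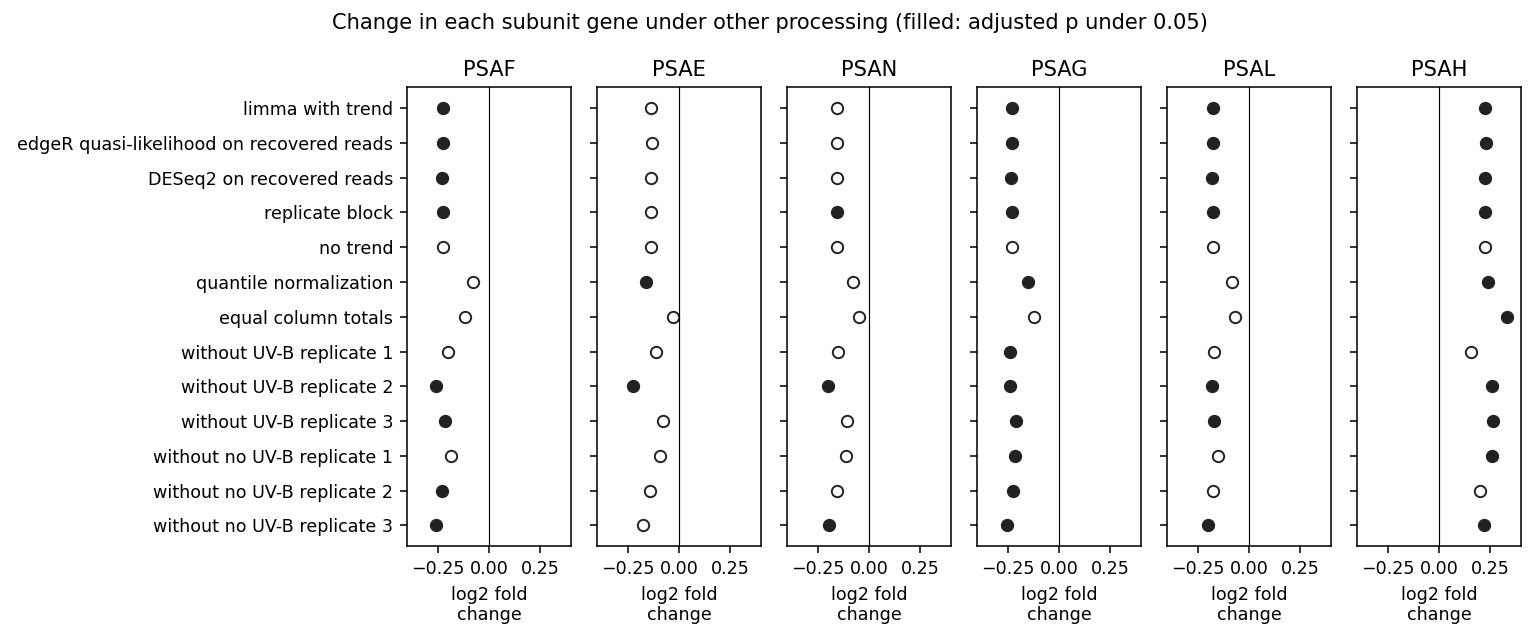
Log2 fold change (UV-B over no UV-B, horizontal axes) of each photosystem I subunit gene in the fit reported here (top row) and in 12 of the other settings (rows below). Filled circles mark an adjusted p under 0.05; PSAH stays right of 0 and the other 5 genes left of 0, with the smallest falls under equal column totals or quantile normalization.

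Genes that act around photosystem I could be found only where the authors' deposited table describes them. That table lists genes changed more than 2-fold, so the members of such a list are changed by selection and their counts carry no further weight. It names 0 photosystem I antenna genes and 0 assembly factors by the words searched. A search for other photosystem I subunits matched 1 gene, described as a PsaB RNA binding protein (Cre17.g702500) and so a factor for the chloroplast transcript of a core subunit, not a subunit. It averaged 101 ± 3.73 with UV-B and 50.3 ± 2.19 without (SD, n = 3 each), and rose by a log2 fold change of 1.00 ± 0.07 (limma adjusted p = 9.64e-13). The carrier list held 2 genes, described as apoferredoxin and ferredoxin. Ferredoxin takes electrons from photosystem I, but the descriptions do not settle whether either of these 2 proteins does so. Cre03.g183850 averaged 57.2 ± 1.31 with UV-B and 24.2 ± 0.726 without, and Cre07.g334800 averaged 151 ± 3.25 with UV-B and 74.6 ± 7.29 without. Both rose (log2 fold changes 1.21 and 1.01).

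The list for photosystem II, the complex that splits water upstream, had 8 raised genes and 1 lowered gene of 9, leaving the PSBS genes aside. The changes with the largest size were in a PsbP-like gene (Cre06.g280150), at 2.87 ± 0.16, a gene categorised with photosystem II subunits (Cre10.g446350), at 2.46 ± 0.10, a gene described as a PsbA translation factor (Cre13.g578750), at -2.38 ± 0.07, and the Psb28 gene (Cre10.g440450), at 1.81 ± 0.07, all log2 fold changes with SE. Of the 9, 3 are described as translation or maturation factors for chloroplast transcripts (g9611, Cre10.g456300 and Cre13.g578750) and 1 is categorised as antenna (Cre02.g110750). The 6 photosystem I subunit genes are outside that table.

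By their order along the chromosomes in the RefSeq annotation of assembly Chlamydomonas_reinhardtii_v5.5, the members do not neighbour each other. Of 12 flanking positions, 11 hold a gene of the table. These flanking genes had 5 raised, 3 lowered and 3 not past the threshold, beside the 59.0% of all genes tested that were called. The gene after PSAN (Cre02.g082550) averaged 271 ± 15.7 with UV-B and 166 ± 10.0 without (SD, n = 3 each), a rise of 0.71 on the log2 scale (limma adjusted p = 5.11e-10), next to a member with a negative log2 fold change. The neighbour before PSAH (Cre07.g330200) fell, at 94.1 ± 9.38 with UV-B and 107 ± 2.17 without (log2 fold change -0.18, limma adjusted p = 0.0409). Other flanking genes went the way of their member. Cre12.g561000 beside PSAG fell by -0.99 (limma adjusted p = 2.02e-07), and Cre10.g420400 beside PSAE by -0.71 (limma adjusted p = 0.00296). The 5 raised flanking genes all lay beside members with a negative log2 fold change.

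The genes whose profile over the 6 libraries lay closest to the median profile of the members were Cre12.g529400 and Cre02.g145800, for which the authors' table gives no description. Their centred log2 values differed from the members' median by a root mean square of 0.020 and 0.022. Within the members this distance was smallest for PSAN (0.019) and largest for PSAH (0.21). Cre12.g529400 averaged 2460 ± 153 with UV-B and 2718 ± 147 without (SD, n = 3 each), with a log2 fold change of -0.14 (limma adjusted p = 0.129).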

How the data were processed

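The submitters' processing notes name TopHat2, HTSeq 0.5.3p9 and edgeR 3.4.2, without saying what each did. Not given in the sources used here are the genome build, gene models, strand setting and treatment of reads with several possible origins. The deposited table holds, per the file headers and values, a CPM-like signal: each gene's count over a library size adjusted by the authors. All values (100% in each library) were whole multiples of 1 read to within 0.001 reads. Description labels tied columns to libraries, and 0 columns were left unused. A second table that the authors deposited gives their log2 fold change, log2 CPM, p-value and FDR for 2596 genes, and served here for gene descriptions.

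The main test was limma 3.58.1 (R 4.3.3) with a mean-variance trend on log2(value + 1), tried first on simulated data. That simulation had larger fold changes than the members show and far fewer changed genes, so it does not bear on their calls. Genes entered where 3 or more libraries had a value of 1 or above, and p-values were adjusted over these 13415 genes by Benjamini-Hochberg. Alternatives were pseudocounts of 0.1, 0.5 and 5, other filters (none, or a value of 5) and 4 scalings. TMM, among these scalings, repeats the deposited one. Further alternatives were other variance models, edgeR 4.0.16 and DESeq2 1.42.0 on recovered reads, and the replicate number as a term. Each library was also left out in turn, and a threshold of 0.01 was tried. Tables were made with Python 3.11.15 and SciPy 1.17.1. The members, lists and tests were chosen with earlier results of these data known. All members were named, with up to 4 genes per list by largest absolute change and the 2 genes nearest in profile. Other list genes and the flanking genes were named after their values were seen. RefSeq locus tags matched 9922 identifiers and served only for gene order.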

Additional observations from a re-analysis of the deposited data

How the results depend on the processing

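The direction of each of the 6 genes was the same in all settings tried, many of which could not change it, and the calls were not. With equal column totals 0 members were lowered, the median log2 fold change of the members was -0.0583, and the values were -0.12 for PSAF, -0.12 for PSAG and -0.0691 for PSAL. With quantile normalization the median was -0.0797, PSAF (-0.0770) and PSAL (-0.0817) lost their calls and PSAE (-0.16) gained one; the differences from the other members were then -0.0811 for PSAE, 0.0048 for PSAF, -0.0852 for PSAL and -0.0811 for PSAN. Without a variance trend 0 members were raised and 0 lowered, at the same log2 fold changes (PSAF -0.22, PSAG -0.23, PSAH 0.23, PSAL -0.18). At a threshold of 0.01, 1 member was lowered, with PSAF (-0.22) and PSAL (-0.18) outside it. Leaving out each library in turn gave 0 to 1 raised and 1 to 5 lowered members, with log2 fold changes from -0.22 to -0.0770 for PSAE, -0.26 to -0.19 for PSAF, 0.16 to 0.26 for PSAH, -0.20 to -0.15 for PSAL and -0.20 to -0.11 for PSAN. Equal totals take out the authors' adjustment of library size. Taking it out moved all 6 members upward by nearly the same amount, as a single factor per library must. PSAE went from -0.14 to -0.03 and PSAH from 0.23 to 0.33. The cause of the other shifts was not tested, except that a left-out library leaves fewer samples. Other pseudocounts, other filters, median-of-ratios factors, robust moderation, edgeR and DESeq2 changed no call of a member. TMM could change none, since its factors equal those already in the deposited values.

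With the replicate number as a block, PSAN also passed (log2 fold change -0.15, adjusted p = 0.0210) and no other member's call changed. Nothing in the labels pairs the numbers. The deviations of same-numbered libraries correlated across genes at 0.045, 0.024 and 0.12, and those of differently numbered libraries at -0.10 to 0.060. UV-B replicates 1 and 3 correlated best with their own number, and UV-B replicate 2 with no UV-B replicate 1 (0.060). Counting error of these genes is at most 1.42% per library; the coefficient of variation between cultures is 0.835% for PSAL with UV-B and at least 2.31% in the other groups.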
